A study of Homo sapiens with 2 samples.

Results

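The genes described here encode the enzymes of glutathione metabolism, the thioredoxin system and the removal of superoxide and peroxides. They are 50 genes chosen by symbol from a list of such enzymes, of 58735 genes in the deposited count table. The choice was made with earlier results of these data known. They fall into 7 functional groups: glutathione synthesis and recycling, peroxidases, transferases, thioredoxin and peroxiredoxin, glutaredoxin, superoxide and hydrogen peroxide removal, and methionine sulfoxide reductases. RNA-seq was done on cells treated with dihydroartemisinin (DHA) and on untreated cells (labelled NC), with 1 library each. NC is read here as untreated. Whether a vehicle was added was not given in the sources used here, nor was the dose of DHA or the length of exposure. Both libraries are from SUIT-2, a human pancreatic adenocarcinoma cell line, in a derivative with high metastatic potential, and so stand for 1 cell line. DHA is an antimalarial of the artemisinin class with an endoperoxide that ferrous iron and heme activate.

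Glutathione is a tripeptide that transferases attach to electrophiles. It donates electrons to glutathione peroxidases and glutaredoxins, and glutathione reductase restores it with electrons from NADPH. The thioredoxin system runs beside it: thioredoxin reductase reduces thioredoxin, which in turn reduces peroxiredoxins and methionine sulfoxide reductases. Many genes of both systems are targets of NRF2, a transcription factor that binds antioxidant response elements under oxidative or electrophilic stress. Pancreatic cancers often depend on these systems to tolerate oxidants, and lipid peroxides that escape them can drive ferroptosis.

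There were no replicates, so no difference below has a replicate check and no p-value was computed. The DHA library held 14521101 counted reads and the untreated library 15452609. Calls of higher or lower in the DHA library needed 50 or more reads in 1 or both libraries, a 2-fold or larger ratio, and a 95% counting interval that left out 1. The ratio is DHA over untreated on counts scaled by TMM (the trimmed mean of M values), with 0.5 reads added to each count. The interval is exact (Clopper-Pearson) and covers counting error only. In bulk RNA, fewer cells of a type and less RNA per cell cannot be told apart. All 6 pancreatic epithelial markers checked were present in both libraries and all 6 were called lower in the DHA library. Their summed level was 1031 TPM in the DHA library, against 2412 TPM in the untreated library. TPM here means reads per base of gene length, scaled to a common total. CDH1 had the fewest reads of the 6 in the DHA library, 23, against 933 in the untreated library. The extraction protocol in the labels names retina, but the 6 photoreceptor markers summed to only 0.723 TPM in the DHA library and 1.33 TPM in the untreated library, with RCVRN, CRX and SAG at 0 reads in both. The 4 immune markers summed to 1.30 TPM in the DHA library and 1.74 TPM in the untreated library, with PTPRC and CD3E at 0 reads in both. The 4 fibroblast markers summed to 0.354 TPM in the DHA library and 3.18 TPM in the untreated library, with COL1A2 and DCN at 0 reads in both. The 4 acinar markers summed to 0 TPM in the DHA library and 0.169 TPM in the untreated library. The part of the lower epithelial markers in the results below was not tested.

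The promoters that follow are shown because TXNRD1, GCLM and AIFM2 are the genes called higher that hold the motif, and because GSTP1 holds the same letters as AIFM2 without being called. The motif searched was TGACNNNGC, the core of the antioxidant response element, on both strands of the window from 250 bases before to 50 bases after each gene's start, as RefSeq gives it on GRCh38.p14. RefSeq starts can differ from the gene starts of the counted annotation, from which the gene coordinates further on are taken. Capitals mark each match, and each sequence runs 5′ to 3′ in the direction of its gene. TXNRD1 (chr12:104215529-104215828, plus strand) encodes cytosolic thioredoxin reductase and GCLM (chr1:93909381-93909680, minus strand) the modifier subunit of glutamate-cysteine ligase. AIFM2 (chr10:70132776-70133075, minus strand) encodes a coenzyme Q reductase and GSTP1 (chr11:67583562-67583861, plus strand) the pi class glutathione transferase.
TXNRD1: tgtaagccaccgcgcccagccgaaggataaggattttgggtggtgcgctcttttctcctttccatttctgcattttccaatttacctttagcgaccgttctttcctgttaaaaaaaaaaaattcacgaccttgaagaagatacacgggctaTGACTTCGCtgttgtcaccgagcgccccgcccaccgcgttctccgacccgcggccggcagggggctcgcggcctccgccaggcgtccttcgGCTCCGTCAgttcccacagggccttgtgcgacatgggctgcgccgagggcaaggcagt
GCLM: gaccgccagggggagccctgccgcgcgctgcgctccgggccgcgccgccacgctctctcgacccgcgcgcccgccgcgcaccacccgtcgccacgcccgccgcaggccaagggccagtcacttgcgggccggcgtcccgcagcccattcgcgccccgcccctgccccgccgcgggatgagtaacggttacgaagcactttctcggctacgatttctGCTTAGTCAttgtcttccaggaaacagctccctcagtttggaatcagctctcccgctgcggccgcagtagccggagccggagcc
AIFM2: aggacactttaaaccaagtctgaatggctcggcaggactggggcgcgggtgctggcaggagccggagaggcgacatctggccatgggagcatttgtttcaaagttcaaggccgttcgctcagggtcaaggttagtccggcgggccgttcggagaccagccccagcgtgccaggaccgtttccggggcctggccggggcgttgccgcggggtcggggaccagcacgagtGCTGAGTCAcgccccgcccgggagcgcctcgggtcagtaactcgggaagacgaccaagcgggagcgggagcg
GSTP1: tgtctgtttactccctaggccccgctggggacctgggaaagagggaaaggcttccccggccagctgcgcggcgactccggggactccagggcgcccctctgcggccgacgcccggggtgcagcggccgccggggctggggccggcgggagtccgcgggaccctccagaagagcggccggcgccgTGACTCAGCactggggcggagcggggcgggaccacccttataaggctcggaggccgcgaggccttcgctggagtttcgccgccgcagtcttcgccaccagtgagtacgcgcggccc
Read on its own strand, the match was TGACTAAGC in GCLM and TGACTCAGC in AIFM2, and TXNRD1 held TGACTTCGC and TGACGGAGC. GSTP1 held TGACTCAGC, the same 9 letters as AIFM2. RefSeq promoters were matched for 40 of the 50 genes, and 8 of them (20%) held the motif, against 13.3% of all 35116 promoters in the table. Among genes with at least 50 reads it was held by 5 of 35 enzymes (14.3%) and by 15.2% of 9206 genes matched by symbol, so the enzymes were near the background. Those 5 were 3 of the 5 genes called higher, 0 of the 5 called lower and 2 of 25 not called, GSTP1 and GSTO1. The other 3 with the motif, GPX2, GSTA4 and GSTM1, had too few reads to be called either way. GCLC and SRXN1, both called higher, had no match in this window. The share with the motif among all genes called higher was not computed. For the enzymes and the 9206 genes only the first listed RefSeq start of each symbol was searched. A match is a stretch of letters and was not tested as a binding site.

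Of the 50 genes, 45 had at least 50 reads in a library. Of these 45, 5 were called higher (11.1%), against 6.72% of all 12064 genes with as many reads, and 5 were called lower (11.1%), against 10.3%. The share called lower was near the background, and the share called higher, a count of only 5 genes, was above it. Both comparisons depended on the 2-fold threshold. At 1.5-fold the share of members called higher was below that of all genes, and the share called lower was above it. The 50 genes were chosen with earlier results of these data known, so a share above the background cannot be read as a result about them. The median log2 ratio of the 45 genes was -0.15, against 0.04 over all 12064 genes, and 26 of 45 were below 0. A ratio within 1.5-fold of 1 was found for 26 of the 45 genes (57.8%) and for 61.7% of all genes. In either direction 17.0% of all genes were called. The genes called higher were SRXN1, TXNRD1, GCLM, GCLC and AIFM2, and those called lower were GSTM4, GGT1, GSTO2, TXNRD3 and GSTM3. Both subunits of the first enzyme of glutathione synthesis, the cytosolic thioredoxin reductase and the enzyme that repairs peroxiredoxins were higher in the DHA library. Of the 6 peroxiredoxins 0 passed 2-fold, which is near the background, since only 17.0% of all genes were called.

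**Figure D1:**
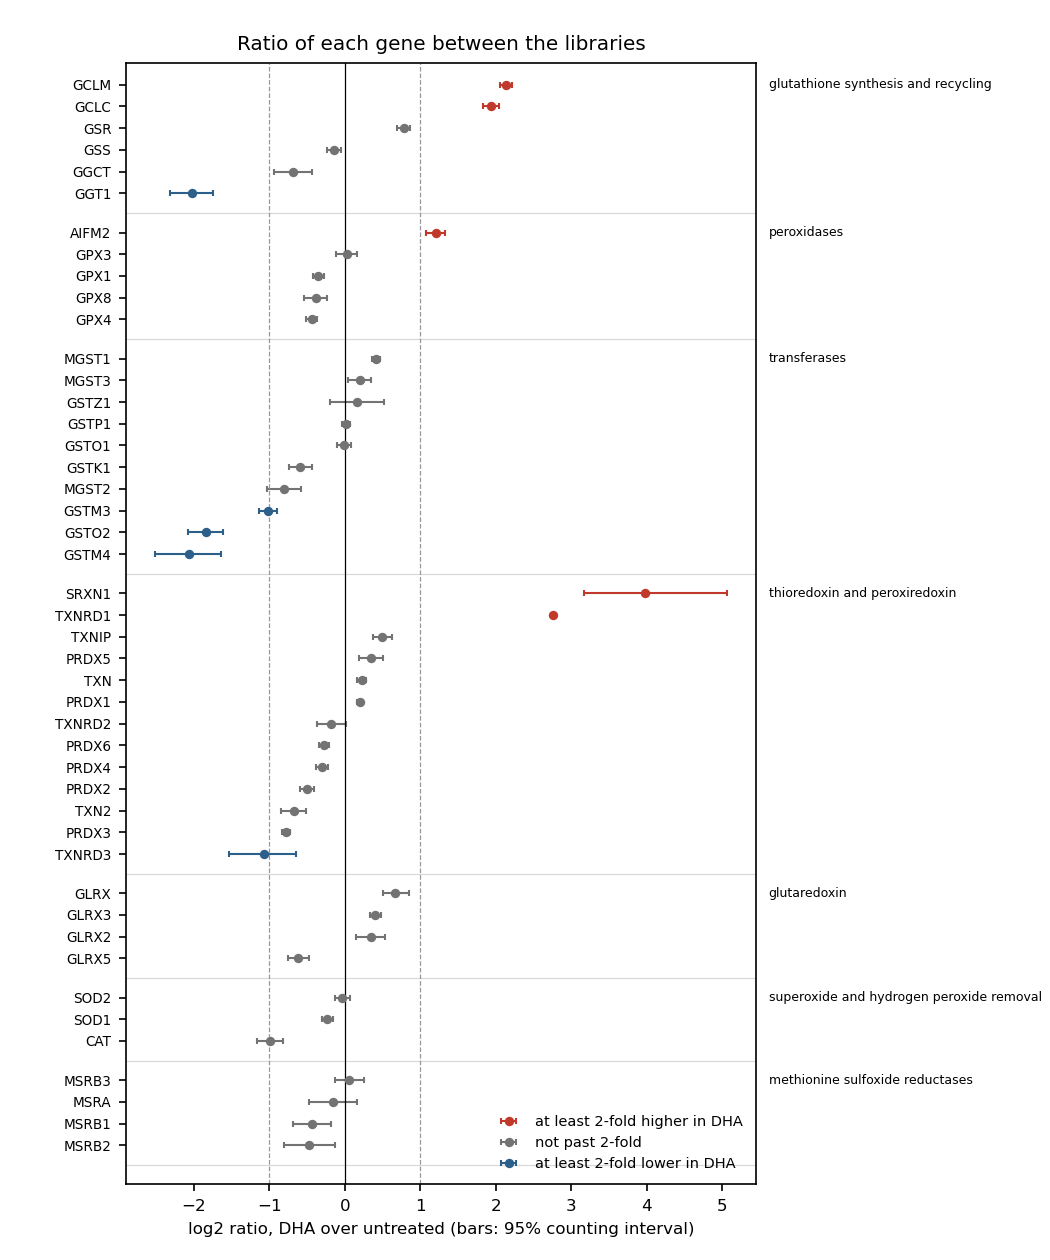
Log2 ratio of DHA over untreated (x axis) for the 45 genes with at least 50 reads, by functional group, with 95% counting intervals as bars and dashed lines at 2-fold. SRXN1 (3.98) and TXNRD1 (2.76) lie farthest right, GSTM4 (-2.06) and GGT1 (-2.02) farthest left, and all 6 peroxiredoxins and all 4 glutaredoxins sit between the dashed lines.

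In glutathione synthesis both genes of the first step were called higher and the gene of the second step was not called. Of the 6 genes of synthesis and recycling, 2 were called higher and 1 lower, with a median log2 ratio of 0.31. Among all genes 6.72% were called higher and 10.3% lower. Glutamate-cysteine ligase catalyses the rate-limiting first step. Its modifier subunit gene GCLM (ENSG00000023909, chromosome 1, 93885205 to 93909456, minus strand) gave 6206 reads in the DHA library and 1490 in the untreated library. That was 4.40-fold higher (95% counting interval 4.16 to 4.66), the rank 89 among the 12064 ratios. The catalytic subunit gene GCLC (ENSG00000001084, chromosome 6, 53497341 to 53616970, minus strand) gave 3618 reads in the DHA library and 998 in the untreated library, 3.83-fold higher (3.57 to 4.11). AL033397.1, a long non-coding RNA with 11 reads in the DHA library and 6 in the untreated library, covers 6.12% of the GCLC exon length on the same strand. The level of GCLC per length was 0.365 of that of GCLM in the DHA library and 0.420 in the untreated library. GSS, which encodes glutathione synthetase, the enzyme of the second step, had 1754 reads in the DHA library and 2052 in the untreated library, a ratio of 0.903 (0.847 to 0.963). GSR encodes glutathione reductase, which restores reduced glutathione. It had 2914 and 1796 reads in the DHA and untreated library, a ratio of 1.71 (1.62 to 1.82) that did not reach 2-fold.

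Of the 2 genes of this group whose products break gamma-glutamyl bonds, 1 was called lower. GGT1 (ENSG00000100031, chromosome 22, 24583750 to 24629005, plus strand) encodes the gamma-glutamyltransferase that cleaves glutathione at the cell surface. It had 131 reads in the DHA library and 564 in the untreated library, 4.06-fold lower (3.37 to 4.97). GGT1 has near-identical copies, and 9 related genes and pseudogenes named GGT or GGTLC together held 4 reads in the DHA library and 1 in the untreated library. How reads that fit several copies were counted is unknown, so GGT1 is uncertain in this respect. It also shares 6.90% of its exon length on the same strand with SNRPD3, which had 958 reads in the DHA library and 1428 in the untreated library. GGCT, a cyclotransferase that splits gamma-glutamyl amino acids, had 215 reads in the DHA library and 366 in the untreated library, a ratio of 0.621 (0.522 to 0.736) that did not pass 2-fold. A gene on the same strand, AC005154.5, covers 27.6% of the GGCT exon length and had 0 reads in both libraries. The summed level of the 6 genes was 679.8 TPM in the DHA library and 321.2 TPM in the untreated library, a ratio of 2.12. In RPKM (reads per kilobase of exon, scaled to the TMM-scaled library size) the ratio was 1.89. Any gene with equal RPKM in both libraries has 1.12-fold more TPM in the DHA library.

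Among the peroxidases the only gene called of 5 with enough reads, AIFM2, is a quinone reductase grouped with them for its role against lipid peroxides. Over all genes 17.0% were called in either direction. GPX1, the main cytosolic glutathione peroxidase, had 2621 reads in the DHA library and 3527 in the untreated library, a ratio of 0.785 (0.746 to 0.826). The counted annotation classes GPX1 as a polymorphic pseudogene, and 2 pseudogenes named after it had 50 reads in the DHA library and 78 in the untreated library. GPX4 reduces phospholipid hydroperoxides and is the central brake on ferroptosis. It had 2555 reads in the DHA library and 3661 in the untreated library, a ratio of 0.737 (0.700 to 0.775). Neither GPX1 nor GPX4 passed 2-fold. Once a trend on gene length was removed, the log2 ratio of GPX1 went from -0.35 to -0.08. That of GPX4 went from -0.44 to -0.24, so both decreases depend on the processing. AIFM2 (ENSG00000042286, chromosome 10, 70098223 to 70132934, minus strand) encodes FSP1, which reduces coenzyme Q and limits lipid peroxidation independently of GPX4. It had 1785 reads in the DHA library and 820 in the untreated library, 2.30-fold higher (2.12 to 2.50).

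The remaining peroxidases were low or near 1. GPX3, a secreted plasma peroxidase, had 837 and 869 reads in the DHA and untreated library, and its interval (0.924 to 1.12) held 1. GPX8, an endoplasmic reticulum peroxidase, had 604 reads in the DHA library and 834 in the untreated library, a ratio of 0.765. Its relative GPX7 had 2 reads in the DHA library and 39 in the untreated library, a ratio of 0.0668 with a wide counting interval of 0.00634 to 0.209, and did not have the 50 reads needed for a call. GPX2, the gastrointestinal form, had 7 reads in the DHA library and 22 in the untreated library and was too low as well. The summed level of the 7 genes was 944.6 TPM in the DHA library and 1025 TPM in the untreated library, a ratio of 0.922, which was 0.823 in RPKM.

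**Figure D2:**
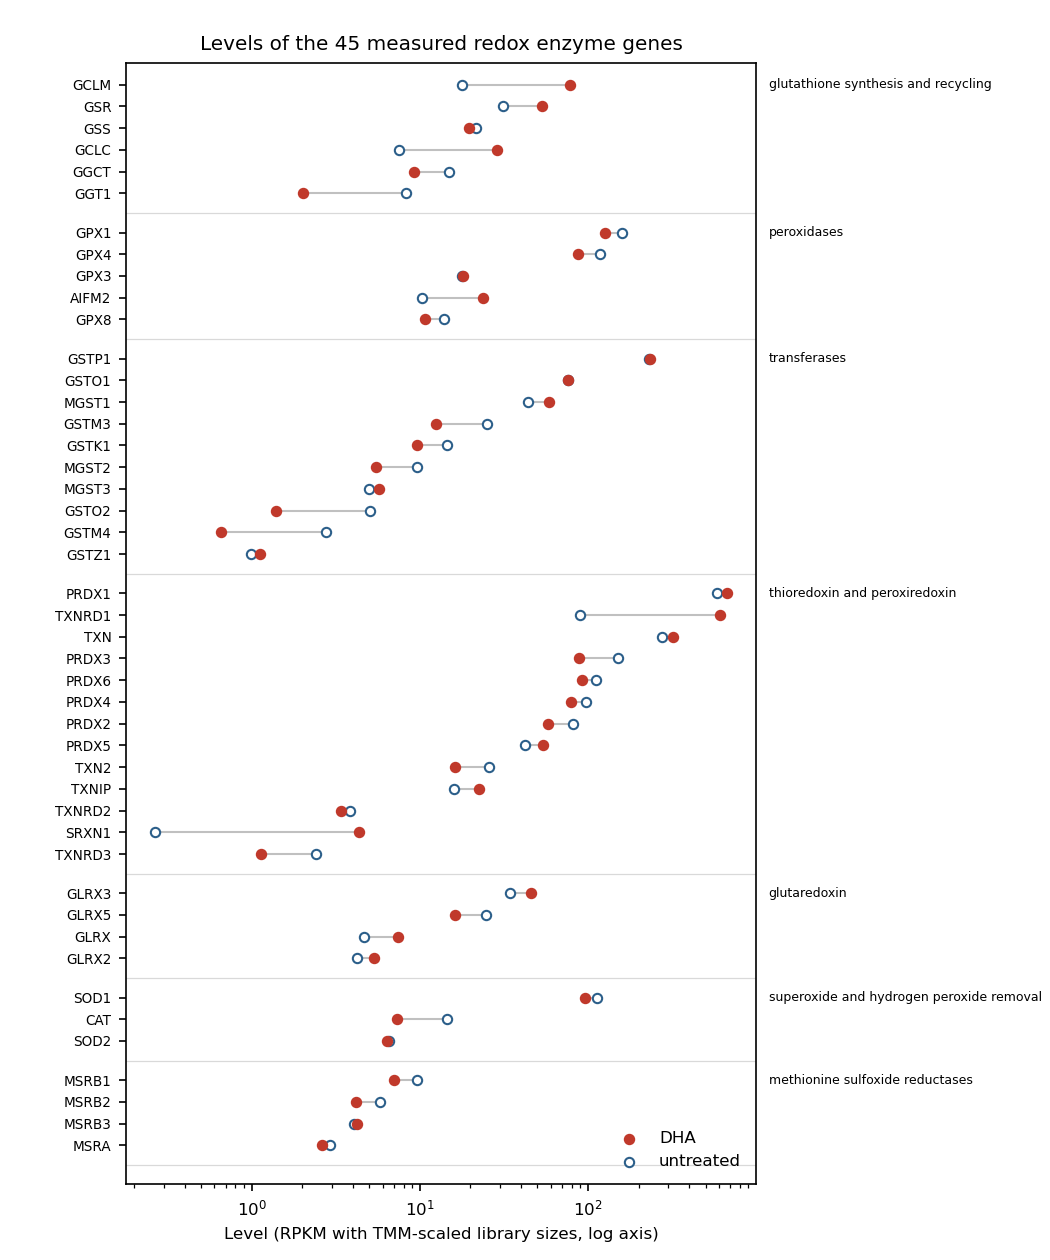
Level of each of the 45 genes (x axis, RPKM, reads per kilobase of exon scaled to the TMM-scaled library size, log axis) in the DHA library (filled points) and the untreated library (open points). PRDX1 is the highest gene in both libraries, and TXNRD1 reaches 607 RPKM in the DHA library, against 89.8 RPKM in the untreated library.

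Glutathione transferases attach glutathione to electrophiles. Of the 10 with enough reads 0 were called higher and 3 lower, against 6.72% and 10.3% of all genes. For so few genes, 0 called higher is near the background. The most abundant ones were near 1. GSTP1, the most abundant transferase in both libraries, had 6479 reads in the DHA library and 6775 in the untreated library. Its ratio of 1.01 (0.976 to 1.05) has a counting interval that holds 1. Its log2 ratio of 0.01 was -0.05 with upper-quartile scaling and 0.22 once a trend on gene length was removed. GSTO1, an omega class enzyme that also reduces dehydroascorbate, had 1868 and 1991 reads in the DHA and untreated library, a ratio of 0.991 (0.930 to 1.06), and its log2 ratio was likewise 0.22 after the length trend was removed. MGST1, a membrane-bound transferase with peroxidase activity, had 6337 reads in the DHA library and 5020 in the untreated library, a ratio of 1.33 (1.28 to 1.38).

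The 3 transferase genes called lower belong to the mu and omega classes. GSTM4 (ENSG00000168765, chromosome 1, 109656081 to 109674836, plus strand), of the mu class, had 55 reads in the DHA library and 244 in the untreated library, 4.17-fold lower (3.12 to 5.74). GSTO2 (ENSG00000065621, chromosome 10, 104268873 to 104304945, plus strand) had 203 reads in the DHA library and 769 in the untreated library, 3.58-fold lower (3.07 to 4.21). GSTO2 lies next to GSTO1 (104235356 to 104267459, same strand), whose ratio was near 1. GSTM3 (ENSG00000134202, chromosome 1, 109733932 to 109741038, minus strand) gave 859 reads in the DHA library and 1836 in the untreated library, 2.02-fold lower (1.87 to 2.20). GSTM3 is close to the threshold and was just under 2-fold, at a log2 ratio of -0.995, once a joint trend on length and GC was removed. The mu class genes are close in sequence and lie in 1 cluster on chromosome 1, and GSTM1 and GSTM2 had 0 reads in both libraries, which allows up to 0.206 CPM (counts scaled to the library size) in the DHA library and 0.195 CPM in the untreated library. GSTM2 shares 6.13% of its exon length with GSTM1 and 4.11% with GSTM4 on the same strand, and how shared reads were counted is unknown.

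Of the other transferases, the membrane-bound MGST2 had 256 reads in the DHA library and 473 in the untreated library, a ratio of 0.572. GSTK1, a mitochondrial and peroxisomal enzyme, had 591 reads in the DHA library and 940 in the untreated library, a ratio of 0.664. MGST3 had a ratio of 1.15, and GSTZ1, an enzyme of tyrosine breakdown, had 1.12. GSTA4, which conjugates the lipid peroxidation product hydroxynonenal, had only 5 reads in the DHA library and 16 in the untreated library. The summed level of the transferases was 1434 TPM in the DHA library and 1315 TPM in the untreated library. That ratio of 1.09 turned to 0.974 in RPKM, because any gene with equal RPKM in both libraries has 1.12-fold more TPM in the DHA library.

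The thioredoxin and peroxiredoxin group held the most abundant of the genes called. Of its 13 genes 2 were called higher and 1 lower, against 6.72% and 10.3% of all genes, with a median log2 ratio of -0.18. TXNRD1 (ENSG00000198431, chromosome 12, 104215779 to 104350305, plus strand), the cytosolic thioredoxin reductase, had 59383 reads in the DHA library and 9277 in the untreated library, 6.76-fold higher (6.61 to 6.91). It took 0.409% of all counted reads in the DHA library (exact interval 0.406 to 0.412) and 0.0600% in the untreated library (0.0588 to 0.0613). By read number it ranked 10 in the DHA library and 177 in the untreated library. Its substrate thioredoxin, encoded by TXN, had 5343 reads in the DHA library and 4844 in the untreated library, a ratio of 1.16 (1.12 to 1.21). Per length, TXNRD1 was thus at 1.89 times the level of TXN in the DHA library and at 0.326 times in the untreated library.

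Of the other reductases 1 was not called and 1 was called lower. TXNRD2, the mitochondrial reductase, had 416 reads in the DHA library and 498 in the untreated library, and its interval (0.773 to 1.01) held 1. TXNRD3 (ENSG00000197763, chromosome 3, 126571779 to 126655155, minus strand), a thioredoxin glutathione reductase known mainly from testis, had 63 reads in the DHA library and 141 in the untreated library, 2.11-fold lower (1.56 to 2.90). TXNRD1 made up 99.3% of the summed level of the 3 reductases in the DHA library and 93.5% in the untreated library. TXNIP, which binds and inhibits thioredoxin and also restrains glucose uptake, had 1189 reads in the DHA library and 890 in the untreated library, a ratio of 1.41 (1.29 to 1.54).

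SRXN1 (ENSG00000271303, chromosome 20, 646615 to 653370, minus strand) encodes sulfiredoxin, which repairs over-oxidised peroxiredoxins. It had 171 reads in the DHA library and 11 in the untreated library, 15.8-fold higher (8.95 to 33.5), and ranked 11 among the 12064 ratios. An overlapping gene on the same strand, AL121758.1, covers 85.0% of the SRXN1 exon length and had 0 reads in the DHA library and 3 in the untreated library. How reads in the shared stretch were counted is not known, so the level of SRXN1, 4.35 RPKM in the DHA library and 0.265 RPKM in the untreated library, is uncertain. The call was absent when genes sharing over 50% of their exon length were left out.

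The peroxiredoxins themselves, thiol peroxidases for hydrogen peroxide and organic peroxides, did not pass 2-fold in either direction. PRDX1, cytosolic and per length the most abundant of all 50 genes in both libraries, had 14961 reads in the DHA library and 13804 in the untreated library, a ratio of 1.14 (1.12 to 1.17). PRDX3, the mitochondrial form, had 4388 reads in the DHA library and 7967 in the untreated library, a ratio of 0.582 (0.561 to 0.604). PRDX2, PRDX4 and PRDX6 had ratios of 0.707, 0.811 and 0.823, and PRDX5 had 1.27. The summed level of the 6 genes was 1045 RPKM in the DHA library and 1074 RPKM in the untreated library, a ratio of 0.973, which turned to 1.09 in TPM (3716 TPM in the DHA library and 3412 TPM in the untreated library). PRDX1 made up 64.5% of their summed TPM in the DHA library and 54.9% in the untreated library. On opposite strands, 24.9% of the exon length of PRDX1 overlaps MMACHC, which had 137 reads in the DHA library and 157 in the untreated library. After the length trend was removed, the log2 ratio of PRDX1 was 0.45 and that of TXN 0.52, still under 2-fold. PRDX5 was then at 0.69, PRDX2 at -0.31, PRDX3 at -0.70, PRDX4 at -0.09 and PRDX6 at -0.12.

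**Figure D3:**
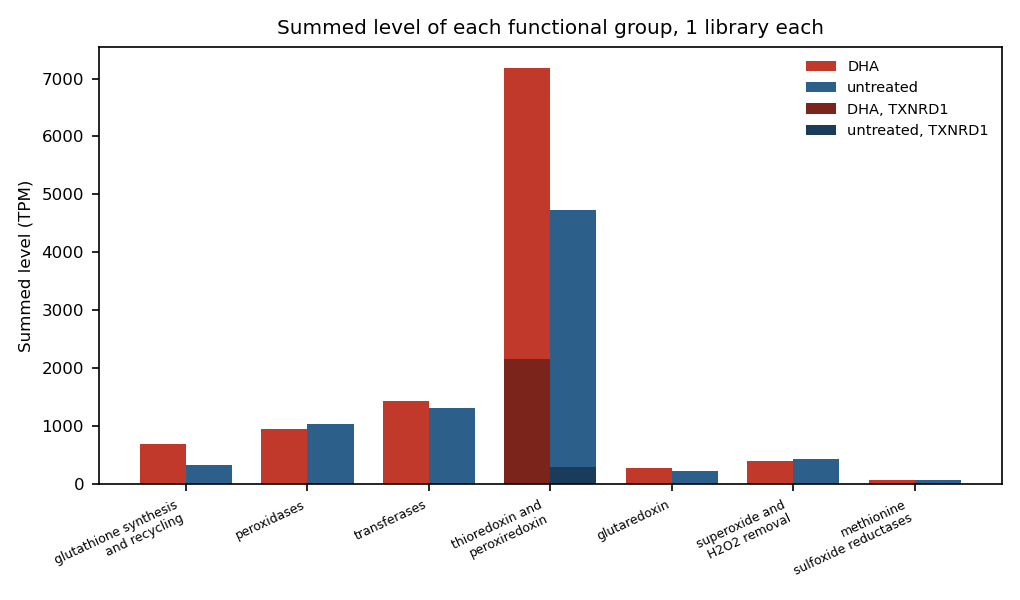
Summed level in TPM (y axis) of the members of each functional group in the DHA library (left bar) and the untreated library (right bar), with the part of TXNRD1 in a darker shade. Thioredoxin and peroxiredoxin genes hold 7186 TPM in the DHA library and 4725 TPM in the untreated library, of which TXNRD1 makes up 2159 TPM in the DHA library and 285.4 TPM in the untreated library. Ratios of DHA over untreated are 1.12-fold larger in TPM than in RPKM.

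All 50 genes together took 1.01% of the counted reads in the DHA library (exact interval 1.00 to 1.01) and 0.622% in the untreated library (0.618 to 0.626). Without TXNRD1 the share was 0.596% in the DHA library and 0.562% in the untreated library. In RPKM the summed level was 3084 in the DHA library and 2550 in the untreated library, a ratio of 1.21. Without TXNRD1 it was 2476 in the DHA library and 2460 in the untreated library, a ratio of 1.01. In TPM the summed level without TXNRD1 was 8805 in the DHA library and 7815 in the untreated library, a ratio of 1.13. Of these 49 genes 4 were called higher and 5 lower, which is 9.09% and 11.4% of the 44 with enough reads. Among all genes the shares were 6.72% and 10.3%.

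Glutaredoxins reduce mixed disulfides with glutathione or carry iron-sulfur clusters, and 0 of 4 passed the size rule. That is near the background, since only 17.0% of all genes were called. GLRX3, a cytosolic cluster carrier, had 3434 reads in the DHA library and 2745 in the untreated library, a ratio of 1.32 (1.26 to 1.39). GLRX, the cytosolic disulfide reductase, had 704 and 467 reads in the DHA and untreated library, a ratio of 1.59 (1.41 to 1.79), and the mitochondrial GLRX2 had a ratio of 1.27. GLRX5, which serves mitochondrial iron-sulfur cluster assembly, had 669 reads in the DHA library and 1083 in the untreated library, a ratio of 0.653 (0.592 to 0.719). On the opposite strand, 13.7% of its exon length overlaps SNHG10.

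The superoxide dismutases were near 1 and catalase lay at the threshold. SOD1, the cytosolic dismutase, had 2830 reads in the DHA library and 3512 in the untreated library, a ratio of 0.851 (0.810 to 0.894). The log2 ratio of SOD1, -0.23, was -0.04 after the length trend was removed. SOD2, the mitochondrial one, had 1530 and 1656 reads in the DHA and untreated library, and its interval (0.910 to 1.05) held 1. A further gene identifier with the symbol SOD2 had 0 reads in both libraries. CAT, the peroxisomal catalase, had 384 reads in the DHA library and 806 in the untreated library, 1.99-fold lower (1.76 to 2.25). Its log2 ratio of -0.99 was just short of a call, and it was called lower with DESeq2 size factors (-1.03) and upper-quartile scaling (-1.055). Methionine sulfoxide reductases, which repair oxidised methionine, had ratios between 0.722 (MSRB2) and 1.04 (MSRB3) with 0 of 4 called, MSRB1 at 0.738 and MSRA at 0.898. With 17.0% of all genes called, 0 of 4 is near the background.

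Some features that did not enter the choice of the genes were compared after the values had been seen. Of the 50 genes, 8 encode selenoproteins, which carry selenocysteine in the active site. Of the 7 with enough reads, TXNRD1 was called higher and TXNRD3 lower, and the other 5 (GPX1, GPX3, GPX4, TXNRD2 and MSRB1) were not called, with a median log2 ratio of -0.35 over the 7. The 7 genes whose proteins work mainly in mitochondria (PRDX3, TXN2, GLRX5, MSRB2, TXNRD2, SOD2 and GLRX2) had a median log2 ratio of -0.47, with GLRX2 alone above 0 and 0 called. Beside both sets, 6.72% of all genes were called higher and 10.3% lower, so 0 called of 7 is near the background. The 38 other genes with enough reads had a median of -0.08, with 18 above 0. Genes whose proteins work in mitochondria and elsewhere, such as GSTK1 (log2 ratio -0.59) and PRDX5 (0.35), were counted among these 38. Both medians thus depend on the choice of set. TXN2, mitochondrial thioredoxin, had 482 reads in the DHA library and 813 in the untreated library, a ratio of 0.626 (0.558 to 0.702), beside 1.16 for the cytosolic TXN. The summed level of the mitochondrial set was 139.6 RPKM in the DHA library and 222.3 RPKM in the untreated library.

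**Figure D4:**
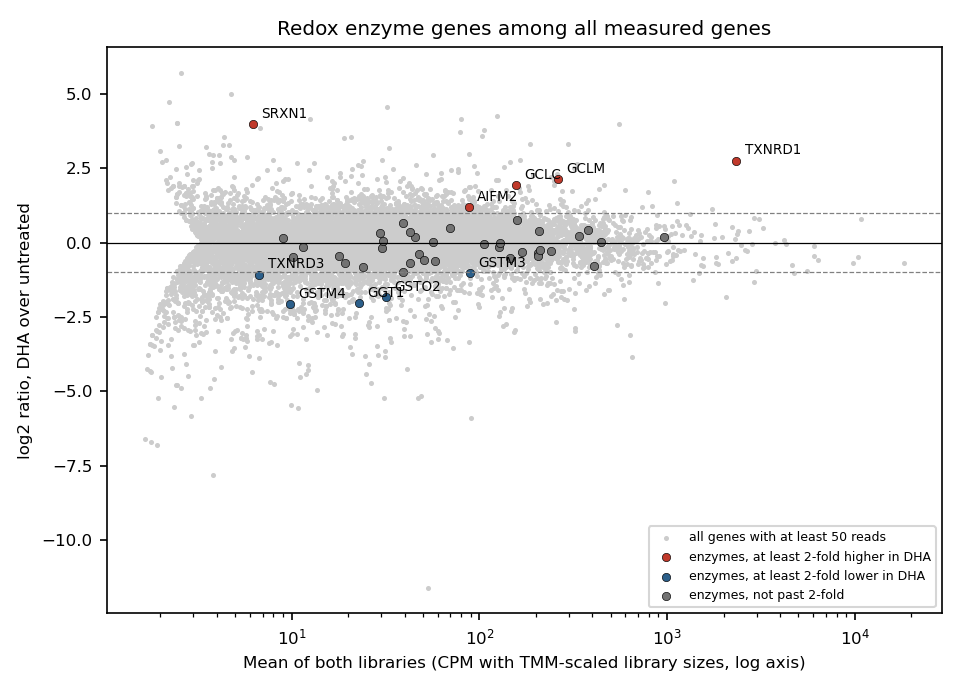
Log2 ratio of DHA over untreated (y axis) against the mean of both libraries (x axis, CPM with TMM-scaled library sizes, log axis) for all 12064 genes with at least 50 reads (light grey) and the 45 enzymes (red where higher, blue where lower, dark grey otherwise, named where called). TXNRD1 has the highest mean of the 45, and the 5 genes called lower all have lower means than GCLC, GCLM and TXNRD1. SRXN1, also called higher, has a lower mean than all 5, and AIFM2 a lower mean than GSTM3.

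Other genes of these pathways were taken from separate lists, which were also chosen with earlier results of these data known. Beside all counts from these lists, 6.72% of all 12064 genes were called higher and 10.3% lower. Of 10 genes of cysteine and glutamate supply, 3 were called higher and 0 lower, with a median log2 ratio of 0.73. They included SLC7A11, the cystine importer of system xc- (9.91-fold, 9.06 to 10.9), and SLC1A4, a neutral amino acid transporter (2.11-fold). SLC3A2, the partner chain of SLC7A11, had 9167 reads in the DHA library and 5145 in the untreated library, a ratio of 1.88 that did not pass. Of 14 measured genes of glutathione breakdown and export, 1 was called higher and 3 lower, with a median of -0.09. CHAC1, which degrades glutathione inside the cell, was 6.79-fold higher (4.70 to 10.4) with 202 reads in the DHA library and 31 in the untreated library. The exporter genes ABCC4 and ABCC3 were 3.51-fold and 2.76-fold lower. A further exporter gene, ABCC2, had 2068 reads in the DHA library and 1248 in the untreated library, a ratio of 1.75 (1.63 to 1.88) that did not pass 2-fold. OPLAH, an oxoprolinase, was 2.36-fold lower.

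NADPH feeds both reductases. Of 15 NADPH supply genes 0 were called higher and 2 lower, with a median of -0.20. The lower ones were the mitochondrial genes ME3, a malic enzyme (2.44-fold), and NNT, a transhydrogenase (2.27-fold). Of 10 genes of selenoprotein synthesis 0 were called, with a median log2 ratio of 0.21, and the gene with the largest ratio, SEPHS2, which makes selenophosphate, had 1.5. Of 11 measured other selenoproteins 1 was called higher and 1 lower, with a median of -0.29. SELENOS, an endoplasmic reticulum quality control protein, was 2.53-fold higher and DIO3, a thyroid hormone deiodinase, 10.9-fold lower (7.04 to 18.5, 20 reads in the DHA library and 235 in the untreated library).

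Of 11 measured genes of NRF2 and its regulators, 5 were called higher and 0 lower, with a median of 0.82. Among all genes 6.72% were called higher and 10.3% lower, but this list was chosen with earlier results of these data known. The small MAF genes, which encode the DNA-binding partners of NRF2, were all among them: MAFF was 6.04-fold (4.89 to 7.60), MAFK 3.60-fold and MAFG 2.97-fold higher. SQSTM1, which draws the NRF2 inhibitor KEAP1 into autophagy, was 4.18-fold higher, and TRIM16, chosen after its value was seen, was 2.49-fold higher. NFE2L2, the gene of NRF2 itself, had 2037 reads in the DHA library and 1422 in the untreated library, a ratio of 1.51. KEAP1 had 1544 reads in the DHA library and 1287 in the untreated library, a ratio of 1.27.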

How the data were processed

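The members and lists were chosen with earlier results of these data known. RNA-seq covered 1 DHA-treated and 1 untreated library, grouped by their treatment labels; the labels' protocols name Trizol RNA and an Illumina kit. The authors deposited raw read counts per gene and a gene length in bases, with 1 column for each of the 2 libraries. Aligner, counter and strand use: not given in the sources used here. A mouse build (mm8) is listed in the submitters' processing notes, but all 58735 identifiers, names, coordinates and lengths were those of human GENCODE release 29 on GRCh38.

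Counts were scaled by TMM (edgeR 4.0.16, R 4.3.3), with factors of 1.00 for DHA and 0.996 for untreated. CPM and RPKM use the scaled totals, and TPM uses reads per base of the deposited length. The size rule was tested on simulated data with known folds. The simulated data held counting error only, with folds beyond 2-fold set in genes with many reads. They cannot speak for variation between cultures or for changes in genes with few reads. The interval at the 95% level and the limit of 3 reads that a count of 0 allows cover counting error only. PCR copies are not independent molecules, so both can understate even that error. The genes named are those past the size rule, the 2 of highest mean TPM and the 1 of largest absolute log2 ratio in each group, the genes under 50 reads, and up to 4 called genes of each pathway list, or the 1 of largest absolute log2 ratio where none was called. Others were chosen after their values were seen, and some genes that the rule takes are left out of the text. Of 131 entries in 9 pathway lists, 1 (GSTT1) was not matched. Alternatives covered scaling (with DESeq2 1.42.0 among them), read minimums, pseudocount, fold threshold, interval, genes that share exons, and a length trend. The length and GC trend, the RPKM sums and the sums without TXNRD1 were chosen after seeing the data. GC content came from the longest GENCODE transcript of each gene, and promoter sequences from RefSeq.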

Additional observations from a re-analysis of the deposited data

How the results depend on the processing

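No paired analysis was possible because each group has 1 library. The calls of GCLM, GCLC, TXNRD1, AIFM2, GGT1, GSTO2 and GSTM4 held under every alternative that was run. GSTM3 lost its call with the length and GC trend removed, TXNRD3 and SRXN1 with at least 200 reads, and SRXN1 when genes sharing exons were left out. The median log2 ratio of the members ranged between -0.22 and -0.08. DESeq2 size factors and upper-quartile scaling each called 1 gene of superoxide and hydrogen peroxide removal lower, CAT. With at least 10 reads, 8 members were called lower, 2 of them peroxidases, as well as 2 other selenoproteins, and of all genes 1297 were higher and 2126 lower. With no read filter, 8 members were lower, 2 of them peroxidases, with 3 other selenoproteins, and of all genes 1432 were higher and 2386 lower. With at least 200 reads, 688 of all genes were lower, 1 thioredoxin and peroxiredoxin gene was higher and 0 were lower, and 0 other glutathione transferases were lower. At 1.5-fold, 2284 of all 12064 genes were higher and 2320 lower, a larger share higher and a smaller share lower than among the 45 members. Of the members at 1.5-fold, 7 were higher (GSR and GLRX were added) and 12 were lower. The lower ones were 2 of glutathione synthesis and recycling, 5 transferases, 3 of thioredoxin and peroxiredoxin, 1 glutaredoxin and 1 of superoxide and hydrogen peroxide removal, and 1 glutaredoxin was among the higher. Of the pathway lists at 1.5-fold, the genes higher were 5 of cysteine supply, 3 of glutathione breakdown and export, 4 other selenoproteins, 2 of the other thioredoxin-fold list, 3 oxidant sources and scavengers, 1 of NADPH supply and 8 of NRF2 and its regulators, and 2 other selenoproteins were lower. Without the genes sharing over 50% of their exons there was 1 thioredoxin and peroxiredoxin gene higher. Removing the length trend, or the length and GC trend, gave 2 oxidant sources and scavengers higher. The summed transferase ratio of 1.09 turned to 0.981 in CPM and 0.974 in RPKM. With the length trend removed, PRDX1 and TXN had log2 ratios of 0.45 and 0.52, and PRDX5 had 0.69. GPX1, GPX4, SOD1, PRDX2, PRDX4 and PRDX6 stayed below 0 but moved toward it. The counting interval limits SRXN1 and the genes under 200 reads most, and variation between cultures was not measured.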

Other observations

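Further pathway lists are given as values, beside 6.72% of all genes called higher and 10.3% called lower. Of 18 measured other thioredoxin-fold and endoplasmic reticulum oxidation genes, 1 was called higher and 2 lower, with a median log2 ratio of -0.03. ERO1B, an oxidase of protein disulfide isomerase, was 2.27-fold higher (95% counting interval 1.96 to 2.64), with 565 reads in the DHA library and 263 in the untreated library. NXN, nucleoredoxin, was 2.25-fold lower and TXNDC17, a small cytosolic thioredoxin-like protein, 2.09-fold lower. On the opposite strand, other genes overlap 36.9% of the TXNDC17 exon length. P4HB, protein disulfide isomerase itself, was chosen after its value was seen and had 12976 reads in the DHA library and 13299 in the untreated library, a ratio of 1.03.

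Of the other glutathione transferases, 5 had enough reads and 2 of them were called lower, PTGES (2.84-fold), which makes prostaglandin E, and GSTT2 (7.63-fold, 3.86 to 19.4). GSTT2 had 8 reads in the DHA library and 68 in the untreated library, and its near-identical copy GSTT2B had 118 reads in the DHA library and 87 in the untreated library, so the split of reads between the copies is uncertain. The alpha class genes GSTA1, GSTA2, GSTA3 and GSTA5 had 0 reads in both libraries. Of 11 measured oxidant sources and other scavengers, HMOX1, which degrades heme, was called higher (13.3-fold) and 0 were lower, with a median of 0.31. NQO1, a quinone reductase, had 20316 reads in the DHA library and 14326 in the untreated library, a ratio of 1.5. The NADPH oxidase genes NOX4 and NOX5 had 0 reads in both libraries and NOX1 had 8 reads in the DHA library and 6 in the untreated library.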
